A study of Saccharomyces cerevisiae with 6 samples.

Results

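The genes described here are 32 subunits of the budding yeast proteasome, the maturation factor gene UMP1 and RPN4, the gene of the transcription factor that drives them. They are 34 of the 5011 transcripts that could be tested, taken from a list of gene names, and all 34 passed the filter on low counts. SEM1, the gene of a small lid subunit, is not among the 34, and its values are given after those of the lid. With libraries scaled by TMM factors, RPN4 mRNA in NoSucrose cells was 4.70-fold higher than in Sucrose cells, while no subunit changed by more than 1.33-fold in either direction and UMP1 differed by less than its replicate spread.

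The proteasome is the large protease that unfolds and degrades proteins tagged with ubiquitin. Its 20S core is built from outer alpha rings that gate the entrance and inner beta rings that hold the active sites. The 19S regulatory particle caps the core with a ring of ATPases (Rpt proteins), a non-ATPase base with ubiquitin receptors, and a lid that removes ubiquitin chains from the substrate. Rpn4 binds a short promoter element found upstream of most subunit genes. Rpn4 protein is itself an extremely short-lived substrate of the proteasome, so that the factor accumulates when proteasome capacity is limiting. An mRNA level is therefore not a measure of Rpn4 protein.

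NoSucrose cells (3 libraries) had grown at 30 °C to an OD600 of 0.45 in synthetic medium with 2% sucrose, and were then moved on a filter to the same kind of medium with glycerol and ethanol (2% each) in place of the sugar, where they stayed for 16 min. Sucrose cells (3 libraries) were pelleted from the 2% sucrose medium without filtration or transfer, so handling and carbon source cannot be told apart. Both groups are the haploid laboratory strain BY4741, whose his3, leu2, met15 and ura3 genes are mutated, with no further genetic change, and each library came from its own culture. The base medium is named as complete in the sample labels and as lacking tryptophan in the methods. Reads were counted from strand-specific libraries of poly(A) RNA, and the libraries held 25106494 to 33651822 estimated counts each. LEU2, MET17 (the met15 locus) and URA3 were at 0 counts in all 6 libraries, and HIS3, which is only partly deleted in this strain, had 1164 to 3414 counts. ADH2, an alcohol dehydrogenase repressed by fermentable sugars, stood at 410 to 739 CPM (counts in 1000000 of a library, after TMM scaling) in NoSucrose libraries against 8.44 to 13.0 CPM in Sucrose libraries. Replicates differed by more than sampling noise, and most in the pairs with NoSucrose replicate 3 and with Sucrose replicate 1.

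The element bound by Rpn4 was located first, because it is what the subunit genes share in sequence. The letters GGTGGCAAA, searched on both strands in the 500 bases before each start codon, were found upstream of 27 of the 34 genes, against 99 of all 6002 protein-coding genes (1.65%). The first base of the element lay 84 to 183 bases before the start codon in these 27 genes, on the coding strand in 19 and on the opposite strand in 8. RPN10 and RPN13 had the related form GGTGGCGAA, which stood upstream of 0.516% of all genes. With 1 mismatch allowed, which takes in the related form, 32 of the 34 genes had a match, but so did 12.4% of all genes. The genes without the exact letters were PRE5, PUP1, RPN8, RPN10, RPN13, UMP1 and RPN4 itself. The elements of the genes whose transcripts rose or fell by the test described below, and of 3 extremes of their subcomplexes that passed no test (PRE8 and RPN2 the highest, RPN10 the lowest), are printed 5′ to 3′ along the gene's own strand with 10 flanking bases on either side. Capitals mark the element, and TTTGCCACC and TTCGCCACC are its forms on the opposite strand. Coordinates are those of the R64 genome.
RPN11, chrVI:153259-153287, plus strand: ggacctccaaGGTGGCAAAttcacaagaa
PRE2, chrXVI:732184-732212, plus strand: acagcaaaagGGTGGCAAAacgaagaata
RPN9, chrIV:1322086-1322114, plus strand: gctttcatccGGTGGCAAAagtaagaaca
RPN3, chrV:196843-196871, plus strand: acgaaaaacaTTTGCCACCcaagaaagag
RPT3, chrIV:1261495-1261523, plus strand: ctgaaagtaaGGTGGCAAAatagtaaatc
RPN2, chrIX:220801-220829, minus strand: atttattttcGGTGGCAAAactggataca
PRE8, chrXIII:86841-86869, minus strand: agcttattaaGGTGGCAAAattgtccccg
PRE6, chrXV:255218-255246, plus strand: cgaagattctTTTGCCACCggaagggaaa
PRE9, chrVII:761223-761251, plus strand: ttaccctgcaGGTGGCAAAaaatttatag
RPT5, chrXV:544855-544883, plus strand: gccaatatgtGGTGGCAAAaatgaattaa
RPN7, chrXVI:742290-742318, plus strand: ataagttaagTTTGCCACCcattgaggat
PRE1, chrV:177683-177711, plus strand: aaatctttacGGTGGCAAAaaataaagaa
RPT1, chrXI:174048-174076, plus strand: attaccgaatTTTGCCACCcgaaaactaa
RPN10, chrVIII:498968-498996, plus strand: caggcgggttTTCGCCACCggaatttaca
RPN13, chrXII:965656-965684, minus strand: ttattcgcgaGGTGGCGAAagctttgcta

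The promoter of RPN4 held other motifs, which are shown because RPN4 was the member that changed most. Pdr1 and Pdr3 (regulators of drug resistance), Yap1 (oxidative stress) and Hsf1 (heat shock) are known activators of RPN4 transcription in yeast. The Pdr1/3 letters TCCGNGGA, where N is any base, matched at 442 and 399 bases before the start codon, and no other member had a match (2.92% of all genes). The Yap1 letters TTANTAA matched at 374 bases in RPN4 and, RPN4 included, in 13 of the 34 members (27.2% of all genes). The Hsf1 letters TTCNNGAA matched at 348 and 21 bases in RPN4 and, RPN4 included, in 5 of the 34 members (21.2% of all genes). AGGGG, the element of the general stress factors Msn2 and Msn4, was found in 11 of the 34 members but not in RPN4 (34.1% of all genes). The matches in RPN4 did not overlap each other. All but the Hsf1 match nearest the start codon are printed with 5 flanking bases on either side, along the coding strand, with the match in capitals. A match is a description of the letters and not evidence of binding.
RPN4, Pdr1/3 match, chrIV:417138-417155, minus strand: caagtTCCGTGGAactca
RPN4, Pdr1/3 match, chrIV:417095-417112, minus strand: accttTCCACGGAtaatc
RPN4, Yap1 match, chrIV:417071-417087, minus strand: cgctaTTACTAAtagcc
RPN4, Hsf1 match, chrIV:417044-417061, minus strand: gatggTTCTAGAAagttc

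RPN4 (YDL020C, chromosome IV, 415113 to 416708 in R64) had 481, 476 and 375 CPM in NoSucrose replicates 1, 2 and 3, against 94.5, 98.6 and 90.4 CPM in Sucrose replicates 1, 2 and 3. All NoSucrose libraries lay above all Sucrose libraries, and NoSucrose replicate 3 was the lowest of its group. The means were 444 ± 59.8 CPM in NoSucrose cells and 94.5 ± 4.13 CPM in Sucrose cells (SD, n = 3 each). The log2 fold change was 2.23 with a standard error of 0.10 and a 95% interval of 2.00 to 2.47 (adjusted p = 6.67e-07, edgeR's quasi-likelihood test with Benjamini-Hochberg adjustment over 5011 genes). Without NoSucrose replicate 3 it was 2.34. By the size of its increase, RPN4 ranked 201 among the 5011 transcripts.

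A transcript is called here at an adjusted p below 0.05 in that test, and a stricter call adds a fold change over 2. Calls were frequent across the transcriptome. Of all transcripts tested, 42.2% were called higher and 39.8% lower in NoSucrose cells. Among the 34 proteasome genes, 6 were called higher and 7 lower, which is 38.2% of them in either direction, and 21 were not called. With the fold change over 2, 1 of the 34 was higher (RPN4) and 0 were lower, against 12.7% higher and 6.03% lower of all transcripts. The median log2 fold change was 0.00 over the 34 genes and 0.03 over all transcripts. The median size of the change, whatever its sign, was 0.10 over the 34 genes and 0.45 over all transcripts. In 11 of the 34 genes the NoSucrose libraries all lay above the Sucrose libraries, in 12 they all lay below, and in 11 they overlapped. Over all transcripts these separations were found in 43.7% (above) and 41.1% (below). CPM here are scaled by TMM factors, which set the bulk of genes as equal, so a change in mRNA per cell common to most genes would not appear in them.

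**Figure D1:**
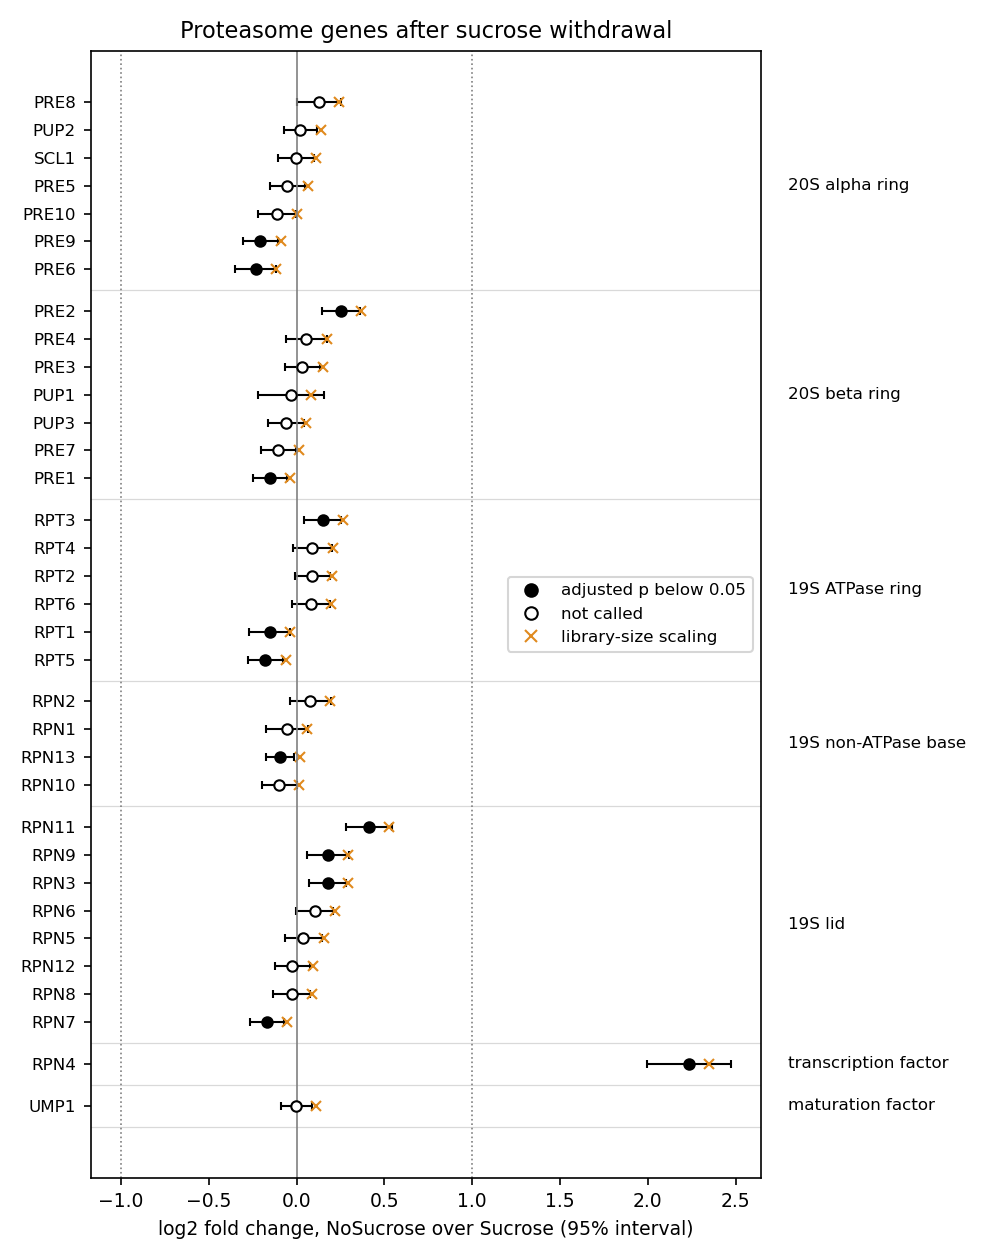
Log2 fold change (NoSucrose over Sucrose) of the 34 proteasome genes, ordered by subcomplex. Circles with bars are edgeR estimates with 95% intervals, filled where the adjusted p was below 0.05, crosses are the estimates when libraries are scaled by their totals alone, and dotted lines mark a fold change of 2. RPN4 stands at 2.23, the 32 subunits lie between -0.23 (PRE6) and 0.41 (RPN11), and of the called genes RPN13 alone has its cross on the other side of 0, as have UMP1 and several other genes that were not called.

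The calls of the small changes, and for some genes their direction, depended on the scaling of the libraries. Scaling by library totals alone moved the median log2 fold change of all transcripts by 0.11, to 0.14, and that of the 34 genes to 0.11. Relative to all transcripts, the median of the proteasome genes was thus slightly lower under either scaling. Under library totals, 17 of the 34 were called higher and 0 lower, so that none of the 7 decreases below was called, and RPN13 changed sign. Of all 5011 transcripts, 2435 were called higher and 1629 lower under that scaling. The NoSucrose libraries then lay above the Sucrose libraries in 21 of the 34 genes and below them in 4, against 50.0% and 33.5% of all transcripts. RPN4, RPN11, PRE2, RPN3 and RPN9 were called higher under each of the 14 alternatives run. PRE9, PRE6, PRE1, RPT5 and RPN7 were called lower under 13 of the 14, all but library totals. Under library totals their log2 fold changes stayed negative, from -0.12 (PRE6) to -0.04 (PRE1).

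In the alpha rings, which form the gate of the core, 0 of the 7 transcripts were called higher and 2 lower, with a median log2 fold change of -0.05. PRE6 had 191, 185 and 182 CPM in NoSucrose libraries, against 208, 223 and 225 CPM in Sucrose libraries. The groups did not overlap, and PRE6 fell to 0.851 of its Sucrose level (log2 fold change -0.23, standard error 0.05, adjusted p = 0.00309, edgeR). PRE9, the alpha subunit without which yeast can live, fell by 0.21 on the log2 scale (adjusted p = 0.00251). PRE8 had the highest log2 fold change of the ring, 0.13, and was not called (95% interval -0.00 to 0.25, adjusted p = 0.0609). Its levels were 200, 197 and 190 CPM in NoSucrose libraries and 170, 178 and 190 CPM in Sucrose libraries, so that the groups met at their edges. SCL1, PUP2, PRE5 and PRE10 had log2 fold changes between -0.11 and 0.02.

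In the beta rings, 1 of the 7 transcripts was called higher and 1 lower, with a median of -0.03. PRE2 encodes the subunit with the chymotrypsin-like active site. Its levels were 345, 346 and 331 CPM in NoSucrose libraries, against 280, 281 and 296 CPM in Sucrose libraries. All NoSucrose libraries were higher, and PRE2 rose 1.19-fold (log2 fold change 0.25, standard error 0.05, adjusted p = 0.00138, edgeR). PRE1, a structural subunit, had 161, 167 and 167 CPM in NoSucrose libraries, against 185, 180 and 186 CPM in Sucrose libraries. All NoSucrose libraries were lower, and PRE1 fell by 0.15 on the log2 scale (adjusted p = 0.0104). The other active-site subunits, PRE3 (caspase-like) and PUP1 (trypsin-like), had log2 fold changes of 0.03 and -0.03 and were not called. PUP1 was the subunit with the largest replicate spread, because Sucrose replicate 1 stood at 165 CPM beside 199 and 205 CPM in the other Sucrose libraries. Without that library PUP1 was called lower (log2 fold change -0.12, adjusted p = 0.0293). PUP3, PRE7 and PRE4 lay between -0.10 and 0.06.

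In the ATPase ring, whose subunits pull the substrate into the core, 1 of the 6 transcripts was called higher and 2 lower, with a median of 0.08. RPT3 had 284, 281 and 271 CPM in NoSucrose libraries, against 256, 251 and 248 CPM in Sucrose libraries. The groups did not overlap, and RPT3 rose 1.11-fold (log2 fold change 0.15, standard error 0.04, adjusted p = 0.0151, edgeR). It lost its call without NoSucrose replicate 2, Sucrose replicate 2 or Sucrose replicate 3, where its adjusted p was 0.0605, 0.0558 and 0.0524 in that order. RPT5 had 237, 228 and 237 CPM in NoSucrose libraries, against 262, 263 and 268 CPM in Sucrose libraries. Here every NoSucrose library was lower, and RPT5 fell by 0.18 on the log2 scale (adjusted p = 0.0056). RPT1 fell by 0.15 (adjusted p = 0.0221), a call that was lost without NoSucrose replicate 2 or Sucrose replicate 3 (adjusted p = 0.0939 and 0.083). RPT2, RPT4 and RPT6 had log2 fold changes of 0.08 to 0.09 and were not called, although their NoSucrose libraries all lay above their Sucrose libraries. No ATPase gene had overlapping groups, and 4 of the 6 lay above and 2 below. Of all transcripts, 43.7% lay above and 41.1% below.

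The non-ATPase base joins the scaffold subunits Rpn1 and Rpn2 with the ubiquitin receptors Rpn10 and Rpn13. Of its 4 transcripts, 0 were called higher and 1 lower, with a median of -0.07. RPN2 had 579, 538 and 528 CPM in NoSucrose libraries and 526, 522 and 512 CPM in Sucrose libraries, with a log2 fold change of 0.08 (adjusted p = 0.188). RPN10 had 180, 187 and 177 CPM in NoSucrose libraries and 192, 194 and 196 CPM in Sucrose libraries, with a log2 fold change of -0.10 (adjusted p = 0.0648). In both genes the groups were separate, but neither passed the test. RPN13 fell by 0.09 on the log2 scale (adjusted p = 0.0347), a call that 9 of the 14 alternatives did not give, among them the removal of any 1 library other than NoSucrose replicate 3. RPN1 had a log2 fold change of -0.06 and was not called.

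The lid gave the largest change among the subunits. Of its 8 listed transcripts, 3 were called higher and 1 lower, with a median of 0.07. RPN11 encodes the metalloprotease that cuts the ubiquitin chain from the substrate. It had 215, 213 and 213 CPM in NoSucrose libraries, against 148, 167 and 167 CPM in Sucrose libraries. All NoSucrose libraries were higher and lay within 2 CPM of each other, and RPN11 rose 1.33-fold (log2 fold change 0.41, standard error 0.06, 95% interval 0.28 to 0.54, adjusted p = 0.000219, edgeR). Leaving out each library in turn gave log2 fold changes of 0.36 to 0.44. RPN9 and RPN3, structural subunits of the lid, both rose by 0.18 (adjusted p = 0.0116 for RPN9 and 0.0068 for RPN3). RPN7, another structural subunit, had 219, 212 and 213 CPM in NoSucrose libraries, against 244, 239 and 241 CPM in Sucrose libraries. It was lower in every NoSucrose library and fell by 0.17 (adjusted p = 0.00624). RPN5, RPN6, RPN8 and RPN12 had log2 fold changes between -0.03 and 0.10 and were not called. The lid subunit outside the list, SEM1, had a log2 fold change of -0.235 (adjusted p = 0.011, edgeR). Its call was lost with library totals alone.

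UMP1 encodes a chaperone that is enclosed in the assembling core and is degraded as its first substrate. It had 88.2, 90.3 and 90.2 CPM in NoSucrose libraries and 86.4, 91.5 and 91.2 CPM in Sucrose libraries. The groups overlapped, and the log2 fold change was -0.00 with a 95% interval of -0.09 to 0.09 (adjusted p = 0.961, edgeR). Over the 20 subunits that were not called, the 95% intervals of the log2 fold change reached from -0.22 (PUP1) to 0.25 (PRE8).

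The summed level of the subunit mRNAs was close in both conditions after TMM scaling, but not with library totals alone. The 32 subunits together made up 8022, 7937 and 7882 CPM in NoSucrose libraries, against 7768, 7891 and 8017 CPM in Sucrose libraries. The groups overlapped, with means of 7947 ± 70.5 CPM in NoSucrose cells and 7892 ± 124 CPM in Sucrose cells (SD, n = 3 each), a ratio of 1.01. The 14 core genes had a ratio of 0.982, with 2998 to 3031 CPM in NoSucrose libraries and 2985 to 3156 CPM in Sucrose libraries. For the 18 genes of the regulatory particle the ratio was 1.02, with 4884 to 5016 CPM in NoSucrose libraries and 4783 to 4861 CPM in Sucrose libraries. These sums overlapped for the core and did not overlap for the regulatory particle. With library totals alone, a scaling added after the data were seen, the 32 subunits made up 8110 to 8395 CPM in NoSucrose libraries and 7483 to 7673 CPM in Sucrose libraries, a ratio of 1.09 with no overlap. The ratio was then 1.06 for the core and 1.11 for the regulatory particle, also without overlap. Under that scaling the median log2 fold change of all transcripts was 0.14.

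**Figure D2:**
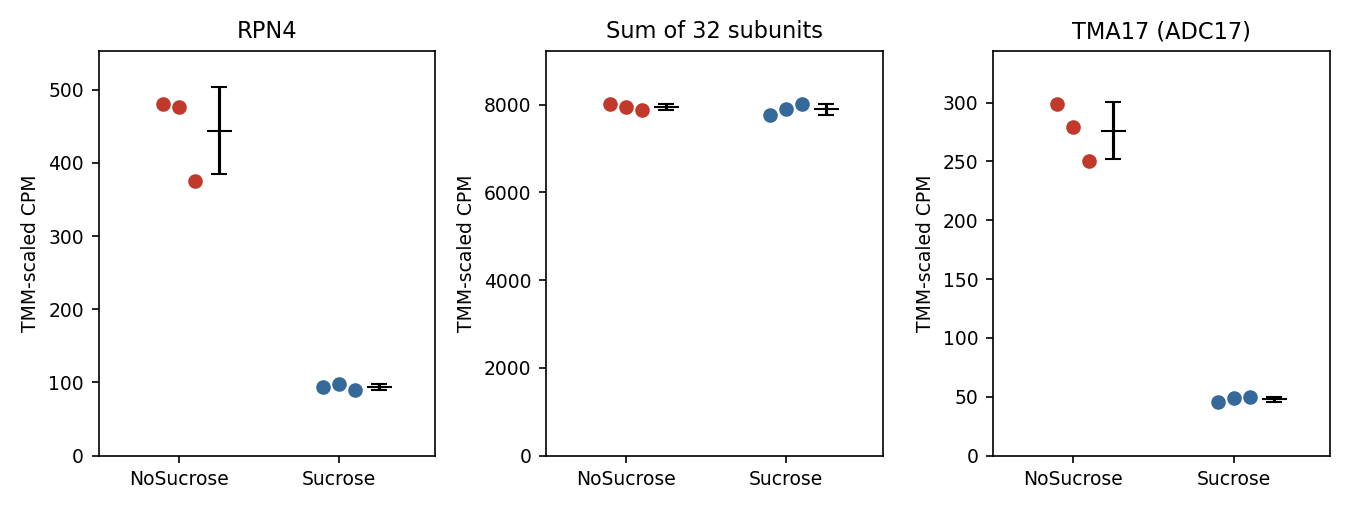
TMM-scaled CPM of RPN4, of the sum of the 32 subunit genes and of TMA17 in each NoSucrose (red, left) and Sucrose (blue, right) library, with the mean and SD of the 3 libraries as bars and each axis starting at 0. RPN4 and TMA17 stand at 375 to 481 and 250 to 299 CPM in NoSucrose libraries against 90.4 to 98.6 and 45.3 to 49.6 CPM in Sucrose libraries, whereas the subunit sum overlaps between conditions under this scaling and does not with library totals alone. With library totals the median log2 fold change of all transcripts was 0.14.

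Levels were compared between genes per kilobase of coding sequence (RPKM). The 32 subunits lay within a narrow band. The highest was 2.48 to 2.68 times the lowest in NoSucrose libraries and 2.64 to 2.86 times in Sucrose libraries. RPN9 was the lowest subunit in every library, with 149 to 156 RPKM in NoSucrose libraries and 128 to 141 RPKM in Sucrose libraries. The highest was PRE2 in the NoSucrose libraries (383 to 401 RPKM) and PUP3, a beta subunit without an active site, in the Sucrose libraries (365 to 372 RPKM). Core transcripts were more abundant than those of the regulatory particle, with median levels of 279 ± 2.27 against 215 ± 0.929 RPKM in NoSucrose cells and 296 ± 4.20 against 205 ± 4.48 RPKM in Sucrose cells (SD, n = 3). Many neighbours in the order lay closer than their replicate spread, as in the NoSucrose libraries SCL1 and PRE9, both with a mean of 288 RPKM.

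RPN4 changed its place in this order. Its mRNA stood at 278 ± 37.5 RPKM in NoSucrose cells and 59.2 ± 2.59 RPKM in Sucrose cells (SD, n = 3 each). Among the 34 genes it ranked 4, 5 and 17 from the top in NoSucrose replicates 1, 2 and 3, and 34 in each Sucrose library. Its level was 1.19 ± 0.160 times the median subunit in NoSucrose cells and 0.251 ± 0.0147 times in Sucrose cells. RPN4 was thus the rarest mRNA of the set in sucrose and about as abundant as a typical subunit mRNA after withdrawal.

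**Figure D3:**
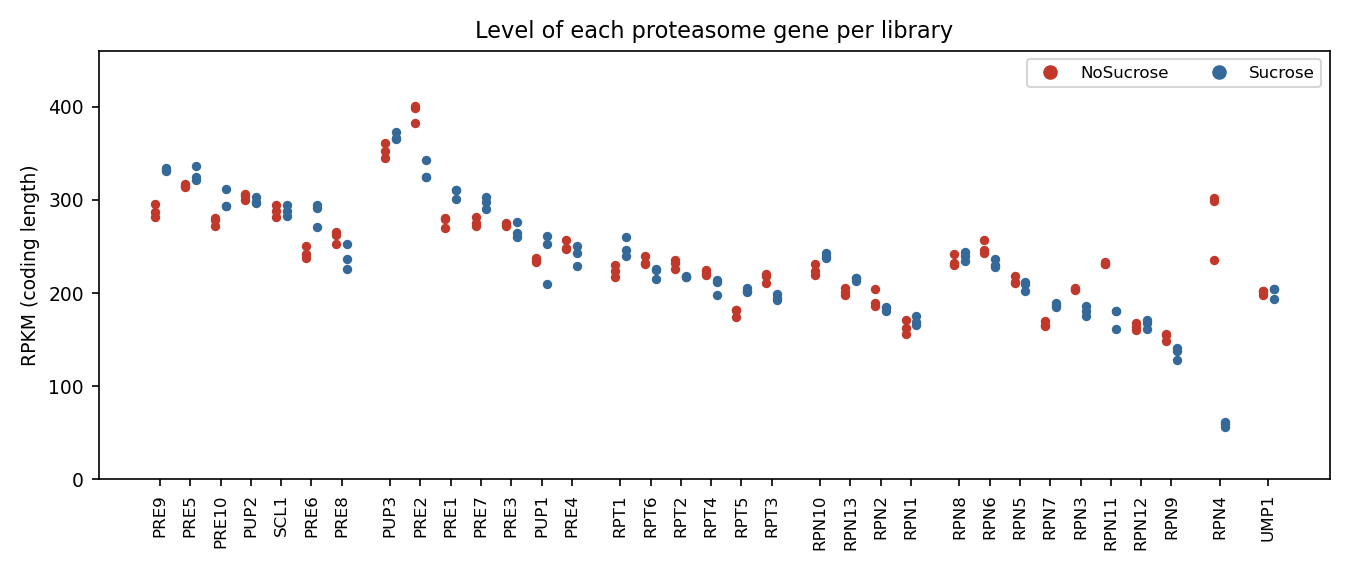
RPKM (by coding length) of each proteasome gene in the NoSucrose (red, left of each pair) and Sucrose (blue, right) libraries, 1 point per library, with genes grouped by alpha ring, beta ring, ATPase ring, non-ATPase base, lid, RPN4 and UMP1. Subunits lie between 128 RPKM (RPN9) and 401 RPKM (PRE2), and RPN4 is the gene whose groups lie far apart.

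Of the 27 genes with GGTGGCAAA, 5 were called higher (18.5%) and 6 lower (22.2%), against 42.2% and 39.8% of all transcripts, with a median log2 fold change of 0.03 and a range of -0.23 to 0.41. Leaving out RPN4, the 6 without these letters had 0 called higher and 1 lower, a median of -0.04 and a range of -0.10 to -0.00. With library totals alone, 15 of the 27 were called higher and 0 lower, against 2435 and 1629 of all 5011 transcripts. Calls in both directions were thus found among the 27 with TMM factors and not with totals. RPN9 and PRE6 carry the element at the same distance from the start codon, 109 bases, on opposite strands as printed above. RPN9 rose by 0.18 and PRE6 fell by 0.23 on the log2 scale, a decrease not called with library totals. PRE2 and RPT1 likewise both have it at 155 bases on opposite strands, and PRE2 rose where RPT1 fell, again a decrease not called with library totals. Both strands occurred among the called genes of either direction. RPN3 rose with the element on the opposite strand. PRE9, RPT5 and PRE1 fell with it on the coding strand, decreases that were also not called with library totals.

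**Figure D4:**
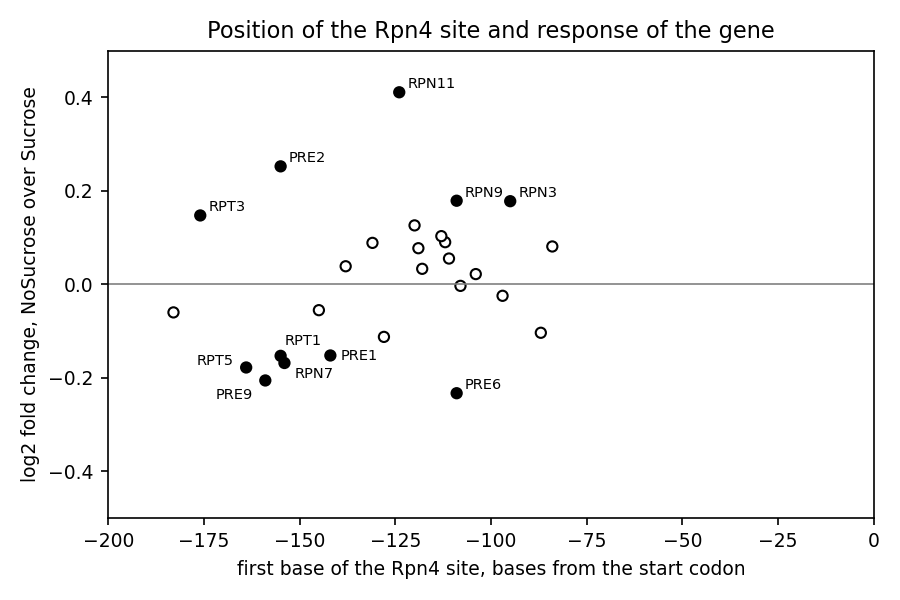
Log2 fold change (NoSucrose over Sucrose) against the position of the Rpn4 element, in bases from the start codon, for the 27 proteasome genes that have it. Filled and labelled points had an adjusted p below 0.05 and open points did not. The called genes of either direction have it 95 to 176 bases before the start codon, and under scaling by library totals none of the decreases was called.

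The other genes of the ubiquitin pathway were followed in 5 lists with 65 genes, all of which could be tested. Of these, 35 were called higher and 15 lower (76.9% called in either direction, against 42.2% higher and 39.8% lower of all transcripts), with a median log2 fold change of 0.19. With a fold change over 2, 9 of the 65 were higher and 2 lower, against 12.7% higher and 6.03% lower of all transcripts. The median size of the change, whatever its sign, was 0.31 over these 65 genes, 0.10 over the 32 subunits and 0.45 over all transcripts.

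Among 16 assembly chaperones, activators and other proteasome-bound proteins, with SEM1 counted here, 10 were called higher and 3 lower, with a median of 0.27. The share called in either direction was 81.25%, close to the 82.0% of all transcripts. Chaperones of the ATPase base are the complete set Nas2, Nas6, Hsm3, Rpn14 and Tma17 (also called Adc17, a chaperone induced by stress). TMA17 had 299, 279 and 250 CPM in NoSucrose libraries, against 45.3, 48.6 and 49.6 CPM in Sucrose libraries. The groups lay far apart, and TMA17 rose 5.77-fold (log2 fold change 2.53, standard error 0.08, adjusted p = 1.37e-07, edgeR). NAS2 rose 2.13-fold, with 49.0 ± 1.55 CPM in NoSucrose cells and 23.1 ± 0.842 CPM in Sucrose cells (SD, n = 3 each, adjusted p = 7.80e-07 by edgeR). HSM3 and RPN14 both rose by 0.57 on the log2 scale (adjusted p = 2.80e-05 and 1.22e-05), and NAS6 was not called (log2 fold change -0.01). SPG5, a proteasome regulator of stationary phase, rose 2.20-fold (adjusted p = 4.83e-07). The lowest of the list was CIC1, a proteasome-interacting protein that also takes part in ribosome assembly, which fell by 1.40 on the log2 scale (76.1 ± 12.1 CPM in NoSucrose cells and 200.5 ± 8.41 CPM in Sucrose cells, SD, n = 3 each, adjusted p = 8.61e-06 by edgeR).

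The factors that set the Rpn4 level moved little beside RPN4 itself. Ubr2, Mub1 and Rad6 form the ubiquitin ligase that marks Rpn4 protein for degradation. The ligase UBR2 rose by 0.34 (adjusted p = 0.00832), whereas its partner MUB1 fell by 0.19 (adjusted p = 0.00701, not called under library totals) and the conjugating enzyme RAD6 fell by 0.49 (adjusted p = 3.02e-05), the lowest value of the list. Of the transcription factors whose motifs were searched in the RPN4 promoter, HSF1 rose by 0.39 (adjusted p = 3.66e-05), the highest value of the list. PDR1 fell by 0.11 (adjusted p = 0.0428), a call that 9 of the 14 alternatives did not give, with a value of 0.01 under library totals alone. PDR3 and YAP1 had log2 fold changes of 0.14 and -0.09 and were not called. All values are of mRNA, and the activity of these factors was not measured.

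In the list of ubiquitin, its activating enzyme and its conjugating enzymes, 7 of 15 were called higher and 5 lower. That is 80% in either direction, against 82.0% of all transcripts. Yeast makes ubiquitin from UBI4, a polyubiquitin gene used under stress, and from RPL40A, RPL40B and RPS31, which fuse ubiquitin to ribosomal proteins. UBI4 had 822, 747 and 610 CPM in NoSucrose libraries, against 189, 231 and 231 CPM in Sucrose libraries. It rose 3.34-fold (log2 fold change 1.74, standard error 0.13, adjusted p = 5.94e-06, edgeR), with NoSucrose replicate 3 lowest in its group as for RPN4 and TMA17. RPL40A, RPL40B and RPS31 fell by 0.68, 0.90 and 0.55 on the log2 scale, with adjusted p-values of 1.89e-05, 8.26e-06 and 4.14e-05 in that order. All 4 share the ubiquitin coding sequence and RPL40A and RPL40B are nearly identical, so the split of reads among them is uncertain. UBC8, the conjugating enzyme that works with the ligase degrading gluconeogenic enzymes, rose 4.66-fold to 107.5 ± 3.06 CPM in NoSucrose cells, against 23.1 ± 0.678 CPM in Sucrose cells (SD, n = 3 each, adjusted p = 3.81e-08 by edgeR). UBC11 was the lowest of the list, at 1.40 ± 0.363 CPM in NoSucrose cells and 3.24 ± 0.101 CPM in Sucrose cells (log2 fold change -1.20, adjusted p = 0.000745).

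Of the 12 ubiquitin ligases, 6 were called higher and 1 lower (58.3% in either direction, against 82.0% of all transcripts). HUL4, a HECT-domain ligase, had 70.6, 66.3 and 61.6 CPM in NoSucrose libraries, against 10.5, 10.9 and 11.5 CPM in Sucrose libraries, and rose 6.02-fold (log2 fold change 2.59, standard error 0.07, adjusted p = 8.93e-08). This was the largest increase of the 65 genes. HRD1, a ligase for misfolded proteins of the endoplasmic reticulum, rose 2.16-fold (adjusted p = 1.96e-07). SSM4, which encodes Doa10, the other main ligase of that membrane, fell by 0.55 (adjusted p = 2.11e-05). Of the 15 genes of Cdc48, shuttle factors and deubiquitinases, 10 were called higher and 3 lower (86.7% in either direction). The deubiquitinases UBP15 and DOA4, which recycles ubiquitin from substrates, both rose by 1.30 (adjusted p = 4.47e-06 and 8.05e-07), and UBP3 fell by 0.41 (adjusted p = 4.30e-05).

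**Figure D5:**
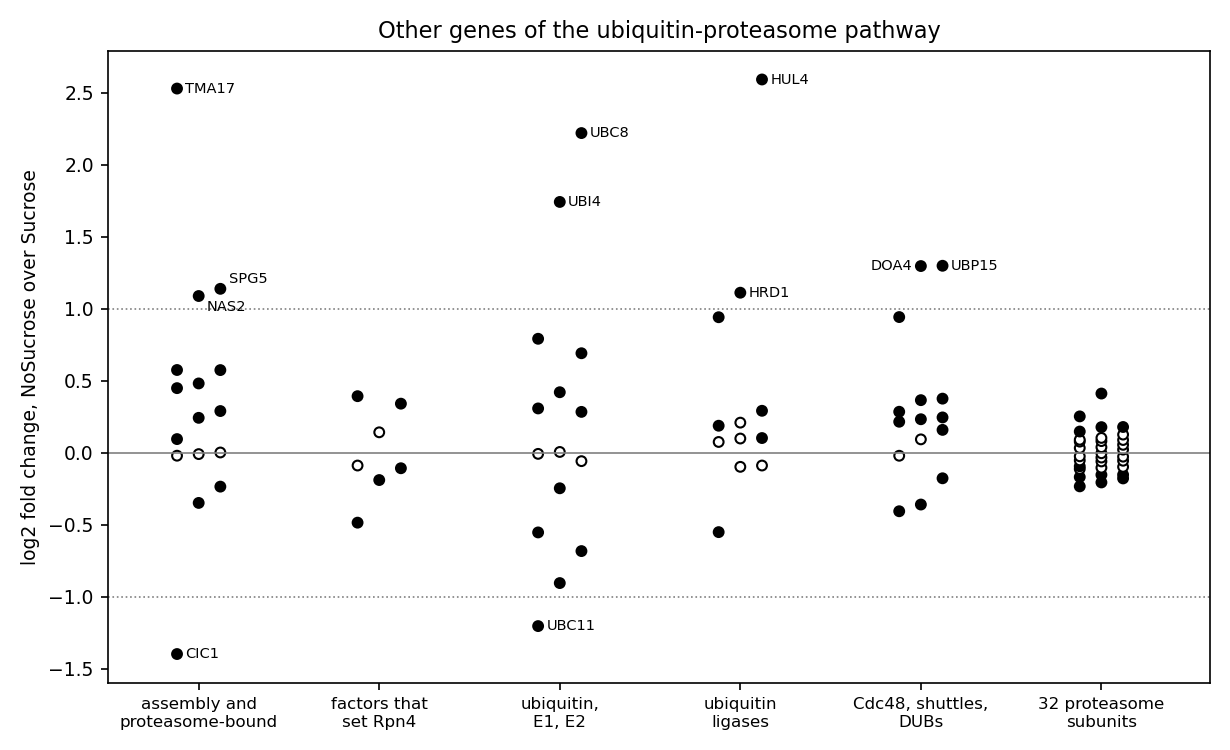
Log2 fold change (NoSucrose over Sucrose) of 65 other genes of the ubiquitin-proteasome pathway in 5 lists, with the 32 subunits on the right. Points are genes, filled where the adjusted p was below 0.05, and dotted lines mark a fold change of 2 in either direction. The 9 genes above the upper line and the 2 below the lower one are named, and no subunit reaches either line.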

How the data were processed

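RNA was sequenced from 3 NoSucrose and 3 Sucrose cultures of BY4741. The authors trimmed the reads, quantified them with Salmon against an R64-1-1 transcriptome and deposited estimated counts (expected counts, not normalized), in an unfiltered table of 5113 genes and a filtered one of 5028. Gene names in the filtered table are displaced against its values, so rows were named by finding each set of 6 values, in any order, among the unfiltered rows (all 5028 rows matched a single gene). The filtered table's column headers gave the samples, because 4 of the 6 headers of the unfiltered table name another library. The assignment of libraries rests on that choice.

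Counts were rounded, kept by filterByExpr at a minimum count of 15 and a minimum total of 20, and tested with edgeR 4.0.16 in R 4.3.3 (TMM, glmQLFit, glmQLFTest, Benjamini-Hochberg) with condition as the only term. The authors' methods name the same edgeR functions, but apply them to these libraries together with earlier datasets not analysed here, and give the filter thresholds as CPM. CPM are TMM-scaled. Coding lengths and sequences came from the RefSeq R64 genome, the build of the files. Salmon splits reads among similar transcripts by estimation. Totals of 25106494 to 33651822 counts gave the members at least 2089 counts in each library. The SD across replicates had a median over the members of 2.3% of the mean in NoSucrose and 2.5% in Sucrose libraries. How much of that spread came from counting was not tested.

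The members and lists were chosen with earlier results of these data known. Values in each library are given for RPN4, UMP1 and the highest and lowest member of each subcomplex. Of the other lists, genes past both thresholds and the extremes are named, together with complete sets by role (chaperones of the ATPase base, factors of Rpn4, ubiquitin genes). The window of 500 bases and the search with 1 mismatch were chosen after matches had been seen. Alternatives were library totals, upper-quartile factors, DESeq2 1.42.0, limma-voom (limma 3.58.1), other filters, counts not rounded, a replicate block and the removal of each library.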

Additional observations from a re-analysis of the deposited data

How the results depend on the processing

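With library totals alone, 17 of the 34 members were called higher and 0 lower, the median log2 fold change became 0.11 for the 34 members, 0.062 for the alpha rings, 0.082 for the beta rings, 0.20 for the ATPase ring, 0.040 for the non-ATPase base and 0.19 for the lid, and the log2 fold changes of RPN13 (0.021), UMP1 (0.11, adjusted p = 0.0398 by edgeR) and PDR1 (0.0073) turned positive. These shifts follow the shift of 0.11 over all 5011 transcripts, of which 2435 were then called higher and 1629 lower. With genes kept at a CPM of 15 or more in 3 libraries, 10 members were called higher, their median became 0.023, and 1 other pathway gene was lower by more than 2-fold, since UBC11 was no longer tested.

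Leaving out each library gave 5 to 7 members called higher and 5 to 9 lower, always 1 higher and 0 lower with a fold over 2, and medians of -0.02 to 0.02 for the members, -0.07 to -0.03 for the alpha rings, -0.07 to 0.03 for the beta rings, 0.06 to 0.09 for the ATPase ring, -0.09 to -0.05 for the non-ATPase base and 0.06 to 0.08 for the lid. Other pathway genes gave 31 to 35 higher and 14 to 15 lower, with 9 and 2 past a fold of 2. RPN4 stayed between 2.17 and 2.34.

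Same-numbered replicates did not deviate together (correlations of -0.14, -0.00 and 0.04 across genes), so the numbers were not taken to pair the cultures. With the replicate block, 6 members were called higher and 6 lower, and RPN4 had a log2 fold change of 2.23. DESeq2 called 6 higher and 10 lower, and limma-voom 8 and 10. The Rpn4 element was in 27 members also within 300 bases (1.22% of all genes), a window tried after seeing the data. That window does not reach the Pdr1/3 and Yap1 matches of RPN4, nor its Hsf1 match at 348 bases. Without the division by coding length, the coefficient of variation across subunits was 35.3 to 39.0% in NoSucrose and 33.9 to 37.6% in Sucrose libraries, against 22.3 to 23.2% and 23.3 to 24.3% with it.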

Other observations

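The Rpn4 element GGTGGCAAA also stood within 500 bases of the start codon of 61 tested genes that are not proteasome members. Of these, 30 were called higher in NoSucrose cells (49.2%) and 20 lower (32.8%), with a median log2 fold change of 0.10, and for the 4885 genes with neither membership nor element the shares were 42.3% and 40.2%. The genes that changed by more than 2-fold were named after their values were seen. They were 6 higher and 3 lower of the 61, against 12.7% higher and 6.03% lower of all transcripts. ACS1, an acetyl-CoA synthetase needed on ethanol, rose by 6.19 on the log2 scale with the element 167 bases before its start codon. GLK1 (glucokinase) rose by 2.99, RIM4 (a regulator of meiotic transcripts) by 2.34, UBI4 by 1.74, GSM1 by 1.45 and ECM12 by 1.07. BUD27, which acts in translation and RNA polymerase assembly, fell by 1.33, the mitochondrial GTP carrier GGC1 by 1.20 and the sterol enzyme ERG25 by 1.02. In 16 of the 61 genes the element lay at the distance seen in the members, 84 to 183 bases. Of the genes named above, ACS1 and UBI4 (160 bases) were among these 16. The other named genes had the element farther from the start codon, at 255 (ECM12) to 459 bases (GGC1). Within the pathway lists, the element was found in UBI4, ECM29, UBA1, CDC48 and YAP1. ECM29, which binds and checks assembled proteasomes, rose by 0.45 (adjusted p = 1.48e-05, edgeR) and CDC48, the segregase that feeds the proteasome, rose by 0.16 (adjusted p = 0.0271), a call lost with the replicate block or without any 1 library except NoSucrose replicate 3. UBA1 and YAP1 had log2 fold changes of 0.01 and -0.09 and were not called.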
